A study of Homo sapiens with 3 samples.

Results

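The ERK feedback genes are transcripts that the RAS to ERK kinase cascade induces and whose products, in most cases, dampen that cascade. The genes were taken from a fixed list of 10 symbols (DUSP4, DUSP5, DUSP6, SPRY2, SPRY4, SPRED1, SPRED2, ETV4, ETV5 and PHLDA1), each of which matched 1 of the 35713 rows used, and all 10 passed the filter on low levels that left 14509 genes for testing. They were read in 3 RNA-seq libraries of Ishikawa, a human cell line established from an endometrial adenocarcinoma and grown in RPMI medium with fetal bovine serum. In 2 of the libraries, CLDN6 replicates 1 and 2, the cells overexpressed claudin-6, a membrane protein of tight junctions, and the labels describe this as transient and delivered by a lentiviral vector made in HEK293T cells. The third library, WT, came from cells without treatment. The labels give no empty-vector control, so the vector and its delivery cannot be told apart from CLDN6, and nothing in them names a separate culture for each library, so any p-value reflects no more than how these 3 samples vary, and that variation may be technical.

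In this cascade, growth factor receptors load RAS with GTP, RAS activates RAF, and MEK then activates ERK. Active ERK induces phosphatases of the DUSP family, which remove the activating phosphates from ERK, and the Sprouty and SPRED proteins, which act between the receptors and RAF. It also induces the ETS transcription factors ETV4 and ETV5. In the endometrial epithelium and its tumours the cascade is driven by growth factor receptors and, in many tumours, by mutations of its own members. The 10 transcripts are commonly read as an indirect measure of ERK output; phosphorylated ERK itself was not analysed here.

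Depth was 71088868 reads for CLDN6 replicate 1, 65755120 for CLDN6 replicate 2 and 67843384 for WT. Levels are given in this order in RPM (reads of the gene in 1000000 reads of the library), and changes as differences of log2(RPM + 1), which understates the change of low genes. CLDN6 itself, the check of the labels, was read at 354, 413 and 0.236 RPM. The 6 epithelial markers summed to 6228, 6481 and 6135 RPM, a sum led by KRT8 at 3530, 3803 and 3529 RPM and KRT18 at 1654, 1959 and 1722 RPM. CDH1 was at 293, 116 and 235 RPM, EPCAM at 194, 98.5 and 125 RPM and PAX8 at 265, 163 and 216 RPM, each lowest in replicate 2. KRT19 was at 291, 342 and 307 RPM. The defining stromal genes PDGFRB, DCN and LUM, the endothelial gene PECAM1, the immune gene CD3E and both neural markers had 0 reads in each library. The other stromal, endothelial and immune markers with reads summed to between 0.745 and 48.8 RPM per list, led by COL1A1 at 16.3, 48.6 and 20.8 RPM and VWF at 16.3, 12.5 and 9.99 RPM. The CLDN6 libraries stood apart from each other: across genes their log2 levels correlated with r = 0.846, below the 0.952 and 0.942 of either with WT. The median change from WT over all genes was 0.20 in replicate 1 and -0.35 in replicate 2. Each result is therefore given for each CLDN6 library by itself. In bulk RNA, fewer cells that express a gene and less RNA of it per cell cannot be told apart.

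Sequence upstream of a RefSeq start site is shown for 3 genes that differ in pattern: DUSP6, above WT in both CLDN6 libraries, SPRY4, low in replicate 1 and high in replicate 2, and PHLDA1, far above WT in replicate 1. No window is printed for the genes that lay below WT in both. RefSeq windows on GRCh38.p14 were matched for 6 of the 10 genes, as 9 start sites. The 250 bases before the start are printed 5′ to 3′ on the minus strand, on which all 3 genes lie. Each of these 3 windows lies inside the counted row of its gene. The 5′ end of that row is at 89353271 for DUSP6, 142326455 for SPRY4 and 76033932 for PHLDA1. The RefSeq start used is thus downstream of it, and the window need not be the promoter of the transcripts counted. Capitals mark GGAA on either strand (TTCC on the printed strand), the core bound by ETS factors such as ETV4 and ETV5.
DUSP6 (chr12:89352502-89352751): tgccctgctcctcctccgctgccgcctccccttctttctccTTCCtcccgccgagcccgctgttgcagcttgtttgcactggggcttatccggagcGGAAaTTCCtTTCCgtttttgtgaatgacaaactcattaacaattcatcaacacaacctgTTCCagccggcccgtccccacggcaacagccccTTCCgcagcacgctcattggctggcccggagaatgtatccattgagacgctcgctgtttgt
SPRY4 (chr5:142324248-142324497): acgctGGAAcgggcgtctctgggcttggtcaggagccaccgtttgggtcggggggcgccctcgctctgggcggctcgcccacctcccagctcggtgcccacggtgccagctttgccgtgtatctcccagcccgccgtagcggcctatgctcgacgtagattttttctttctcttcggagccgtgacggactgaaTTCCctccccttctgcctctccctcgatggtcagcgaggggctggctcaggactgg
PHLDA1 (chr12:76031777-76032026): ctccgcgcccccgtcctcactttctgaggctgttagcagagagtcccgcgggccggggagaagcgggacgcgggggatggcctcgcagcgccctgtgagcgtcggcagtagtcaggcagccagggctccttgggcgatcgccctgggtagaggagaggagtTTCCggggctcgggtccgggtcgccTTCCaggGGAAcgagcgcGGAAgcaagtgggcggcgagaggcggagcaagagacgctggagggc
The core was present in 9 of 9 windows of these genes and in 92.7% of all 35116 windows of the same length. The DUSP6 window held 6 copies, a number reached by 9.14% of all windows, against 2 in that of SPRY4 and 4 in that of PHLDA1, with a median of 3 over all windows. Searched on both strands, the longer ETS site CCGGAAG, the AP-1 site TGANTCA, the cAMP response element TGACGTCA and the CArG box of serum response factor were found in 0 of the 9 windows, against 8.52%, 6.57%, 1.65% and 1.16% of all windows. The longer ETS site contains the core. These matches describe letters in these windows and not binding.

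The genes did not move as a block. In both CLDN6 libraries 1 of 10 lay above WT (DUSP6; 9.06% of all genes tested) and 3 of 10 lay below (SPRY2, SPRED2 and ETV5; 15.1%), and for the other 6 WT lay between the CLDN6 libraries (75.9%). DUSP4, DUSP5, SPRY4 and ETV4 were lowest in replicate 1 and highest in replicate 2, an order held by 22% of all genes, and SPRED1 and PHLDA1 were highest in replicate 1 and lowest in replicate 2 (53.8%). The all-gene median change of each CLDN6 library was also subtracted from its changes from WT, so that WT still enters. Measured in this way, called from the all-gene medians hereafter, the same counts of 1, 3 and 6 were found, beside 12.9%, 12.9% and 74.2% of all genes. Over the 10 genes the median change was -0.38 in replicate 1 and -0.05 in replicate 2, beside 0.20 and -0.35 over all genes. None of the 10 passed the test of CLDN6 against WT (limma, Benjamini-Hochberg; 0.00689% of genes tested passed), and 0 had an unadjusted p under 0.05 by limma (0.0276% of genes tested) or by limma-voom. The lowest unadjusted p of a member, that of PHLDA1, was 0.34 in the limma fit, and each adjusted p was 0.99996. With a lone WT library, 1 residual degree of freedom was left, and an exact permutation of 2 against 1 libraries cannot give a p below 0.333.

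**Figure D1:**
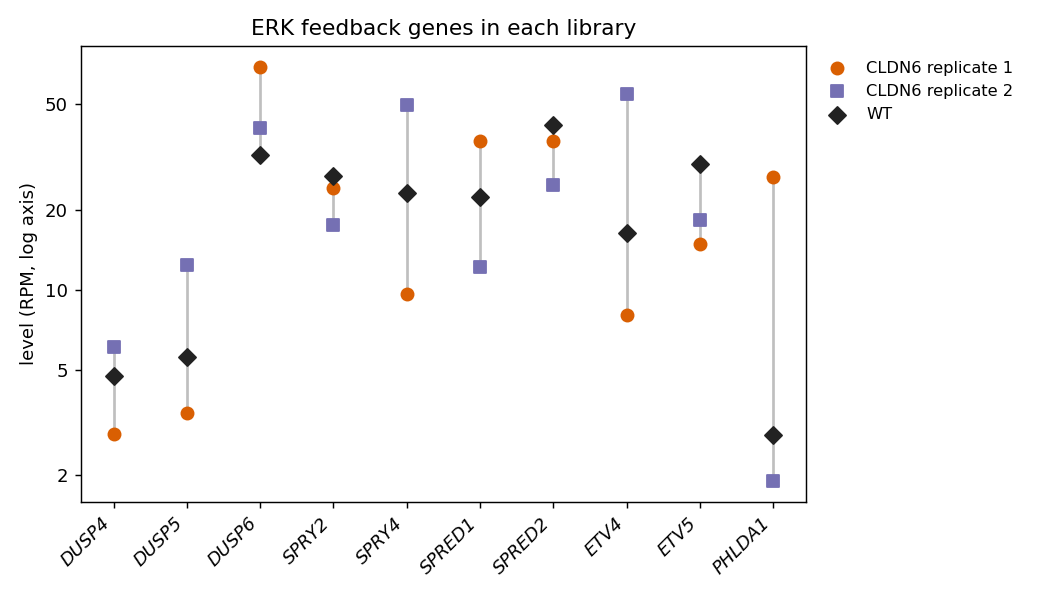
Level of each gene (RPM, log axis) in CLDN6 replicate 1 (circles), CLDN6 replicate 2 (squares) and WT (diamonds), with a grey line from the lowest to the highest library; each symbol is 1 library. DUSP6 has WT lowest, SPRY2, SPRED2 and ETV5 have WT highest, and PHLDA1 spans the widest range, from 1.90 to 26.6 RPM.

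The phosphatases come first. DUSP6, a cytoplasmic phosphatase specific for ERK, was read at 69.4, 40.6 and 32.1 RPM. Both CLDN6 libraries lay above WT, by 2.16-fold in replicate 1 (95% interval of the reads 2.05 to 2.27) and 1.26-fold in replicate 2 (1.19 to 1.34). These intervals, exact and from the reads of a pair of libraries, cover counting error only. The mean of the CLDN6 libraries as deposited was 55.0 RPM ± 20.4 (SD, n = 2). The distance to WT was thus close to the spread of the pair, and the log2 change was 0.71 ± 1.01 (SE). This spread depends on the scaling. With a trend on GC content and transcript length removed and library medians aligned, the changes from WT were 0.75 and 0.81. That setting was chosen after seeing the data. DUSP6 (ENSG00000139318) lies on chromosome 12 from 89347232 to 89353271 in GRCh38, and its exons share 1875 bases with those of an antisense row, read at 1076, 555 and 560 reads. The strand setting of the counting is not given in the sources used here, so the reads of both rows cannot be parted.

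DUSP5, a nuclear phosphatase specific for ERK (ENSG00000138166, chromosome 10 from 110497838 to 110511544), was read at 3.42, 12.4 and 5.57 RPM, on 243, 816 and 378 reads. WT lay between the CLDN6 libraries, which were 3.63-fold apart. DUSP4, a nuclear phosphatase that acts on ERK and on the stress kinases (ENSG00000120875, chromosome 8 from 29333064 to 29350668), showed the same order at 2.87, 6.10 and 4.73 RPM. Its CLDN6 libraries were 2.13-fold apart. The fitted changes of DUSP5 and DUSP4 were 0.23 ± 1.27 (SE) and -0.13 ± 1.24, since replicates on opposite sides of WT cancel. In replicate 2 all 3 phosphatases lay above WT. In replicate 1 DUSP6 lay above WT, while DUSP4 and DUSP5 lay below it at 0.607 (0.506 to 0.725) and 0.614 (0.520 to 0.723) of its level.

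Among the Sprouty genes, whose products interrupt signaling from receptors to RAF, SPRY4 was read at 9.64, 49.6 and 23.1 RPM. Replicate 1 was at 0.416 of WT (0.380 to 0.456) and replicate 2 at 2.14 times WT (2.02 to 2.28), a 5.14-fold gap between libraries of the same label. Among 14509 genes, 57 were at least as far in this direction, SPRY4 included. SPRY2 was read at 24.2, 17.5 and 26.9 RPM, with both CLDN6 libraries below WT, at 0.897 (0.839 to 0.958) and 0.649 (0.603 to 0.6995) of its level. Its fitted log2 change was -0.37 ± 1.12 (SE). SPRY4 (ENSG00000187678) lies on chromosome 5 from 142310427 to 142326455 and SPRY2 (ENSG00000136158) on chromosome 13 from 80335976 to 80340951.

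The SPRED proteins bind neurofibromin, the RAS-inactivating protein encoded by NF1, and bring it to the membrane. SPRED2 (ENSG00000198369, chromosome 2 from 65310851 to 65432637) was read at 36.4, 24.9 and 41.9 RPM, so that both CLDN6 libraries lay below WT, at 0.868 (0.822 to 0.916) and 0.593 (0.558 to 0.631) of its level. SPRED1 (ENSG00000166068, chromosome 15 from 38252326 to 38357249) was read at 36.3, 12.1 and 22.4 RPM, with WT between the CLDN6 libraries and a 2.99-fold gap between them. NF1, picked once the levels were known, was at 137, 28.99 and 92.1 RPM, above WT in replicate 1 and below it in replicate 2 as SPRED1 was. This order was held by 18 of the 30 genes of the RAS-ERK cascade and by 53.8% of all genes. The NF1 row overlaps those of OMG, EVI2A, EVI2B and others.

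ETV4 and ETV5 are close relatives within the ETS family, yet their levels followed different patterns. ETV4 (ENSG00000175832, chromosome 17 from 43527844 to 43579620) was read at 8.03, 54.9 and 16.3 RPM. Replicate 1 was at 0.492 of WT (0.444 to 0.545) and replicate 2 at 3.36 times WT (3.14 to 3.60), so that the CLDN6 libraries were 6.84-fold apart, with 29 of 14509 genes at least as far in this direction, ETV4 included. ETV5 (ENSG00000244405, chromosome 3 from 186046308 to 186110318) was read at 14.8, 18.2 and 29.7 RPM. As deposited, its CLDN6 libraries were the closest of the 10 genes in ratio, with a mean of 16.5 RPM ± 2.42 (SD, n = 2). Both lay below WT, at 0.498 (0.462 to 0.537) and 0.614 (0.571 to 0.659) of its level. With a trend on GC content and transcript length removed, the pair of SPRED1 was closer. The log2 difference of replicate 1 minus replicate 2 was then 0.23 for SPRED1 and -0.33 for ETV5. As deposited, the distance of ETV5 from WT was larger than the spread of the CLDN6 pair, but its log2 change of -0.82 ± 1.14 (SE) did not pass. The unadjusted p was 0.47 by limma, whose spread here is that of all genes of like level and not that of the ETV5 pair. With the trend removed and library medians aligned, ETV5 was at -1.19 from WT in replicate 1 and -0.31 in replicate 2. Its fitted change was then -0.75, and the difference of replicate 1 minus replicate 2 was -0.88. Exons of ETV4 share 68 bases with those of DHX8 on the opposite strand and exons of ETV5 share 164 bases with those of DGKG, so the reads in those bases are uncertain, and the DGKG row held 36, 56 and 67 reads.

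PHLDA1, a pleckstrin homology-like protein whose transcript is part of common signatures of MEK output (ENSG00000139289, chromosome 12 from 76025447 to 76033932), was read at 26.6, 1.90 and 2.84 RPM, on 1888, 125 and 193 reads. Replicate 1 stood alone, 9.34-fold above WT (8.05 to 10.9), while replicate 2 was at 0.668 of WT (0.529 to 0.841). The gap of 14.0-fold between the CLDN6 libraries was the widest among the 10 genes, and 93 of 14509 genes were at least as far in this direction, PHLDA1 included. Its fitted log2 change of 1.22 ± 1.27 (SE) rests on replicate 1. Antisense rows share 553 and 779 bases with its exons; that of RP11-290L1.3 held 155, 21 and 25 reads, so that this row was also highest in replicate 1.

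**Figure D2:**
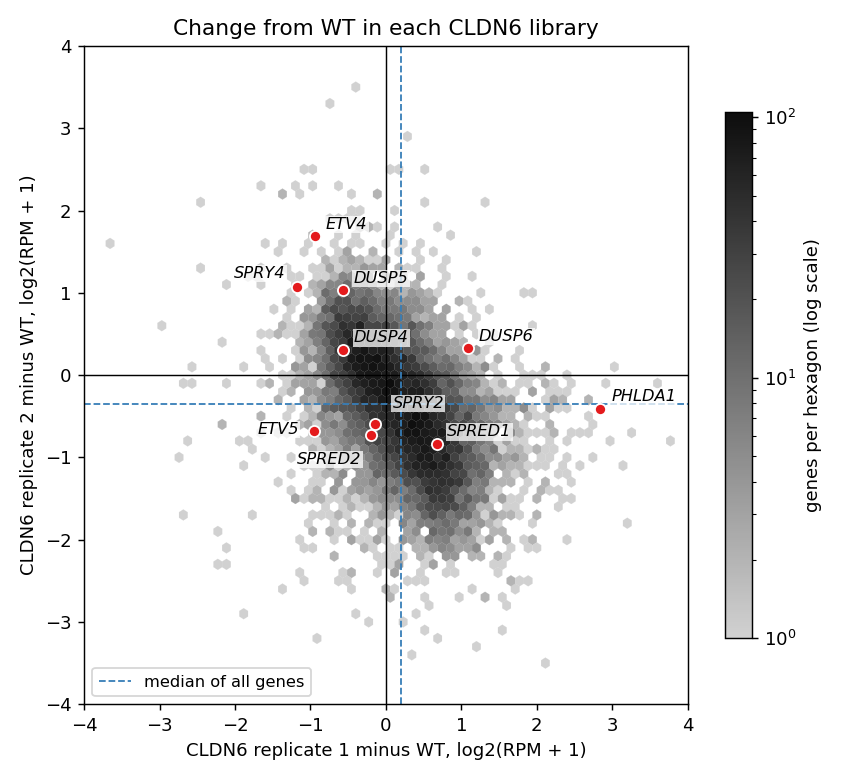
Change from WT in CLDN6 replicate 1 (x axis) and replicate 2 (y axis), in log2(RPM + 1) units, with the 10 genes in red, genes tested as grey hexagons (darker for more genes) and the all-gene medians as dashed lines; both axes share the WT library, and genes beyond the axes, CLDN6 among them, are not drawn. ETV4 and SPRY4 lie at the upper left outside the dense part of the cloud, with single genes farther out, PHLDA1 lies at the right at 2.84 and -0.41, and of the 10 only DUSP6 has both changes above 0.

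At a limit of 2-fold on the log2(RPM + 1) scale, replicate 2 lay above WT for 3 of 10 genes (DUSP5, SPRY4 and ETV4), beside 1.77% of all genes, and below WT for 0 of 10, beside 18.4%. Replicate 1 lay above WT by that limit for 2 of 10 (DUSP6 and PHLDA1), beside 6.69%, and below it for 1 of 10 (SPRY4), beside 1.16%. The CLDN6 libraries were at least 2-fold apart for 5 of 10 genes, beside 43.4% of all genes. Of these 5, replicate 2 was higher for 3 (DUSP5, SPRY4 and ETV4), beside 7.15%, and replicate 1 for 2 (SPRED1 and PHLDA1), beside 36.2%. The members were chosen with results of these libraries known, so these shares describe the list and carry no test. The added 1 RPM decides some cases. By the ratio of RPM, ETV4 (0.492) and ETV5 (0.498) also lay at least 2-fold below WT in replicate 1. The CLDN6 libraries of DUSP4 were also more than 2-fold apart (2.13-fold). Shares of all genes were not counted by that ratio.

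GC content moved with these gaps. Over all genes, the median difference of replicate 1 minus replicate 2 was 1.62 in the decile of lowest GC content and -0.33 in that of the highest, with a Spearman correlation of -0.61 across 14372 genes. Across the 10 genes, which share the same libraries, the correlation was -0.92: SPRED1, at 38.9% GC, was higher in replicate 1 by 1.504, and ETV4, at 60.8%, was higher in replicate 2 (difference -2.63). Once a trend fitted on GC content and transcript length was taken out, the difference was 0.23 for SPRED1, -0.84 for DUSP5, -1.70 for ETV4, 2.39 for PHLDA1 and -2.33 for SPRY4. The gap of SPRED1 was thus mostly gone, those of DUSP5, ETV4 and PHLDA1 were smaller, and that of SPRY4, at 50.4% GC, was as large as before. The number of genes at least 2-fold apart was then 3 of 10 (SPRY4, ETV4 and PHLDA1), beside 30.2% of all genes, and the correlation across the 10 genes was -0.72. With the library medians aligned as well, 5 of 10 were that far apart (DUSP4, DUSP5, SPRY4, ETV4 and PHLDA1), beside 19.7%. For SPRY4, 27 of 14372 genes were then at least as far in its direction, for ETV4 82 and for PHLDA1 284. The part of GC content in the remaining gaps was not tested.

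**Figure D3:**
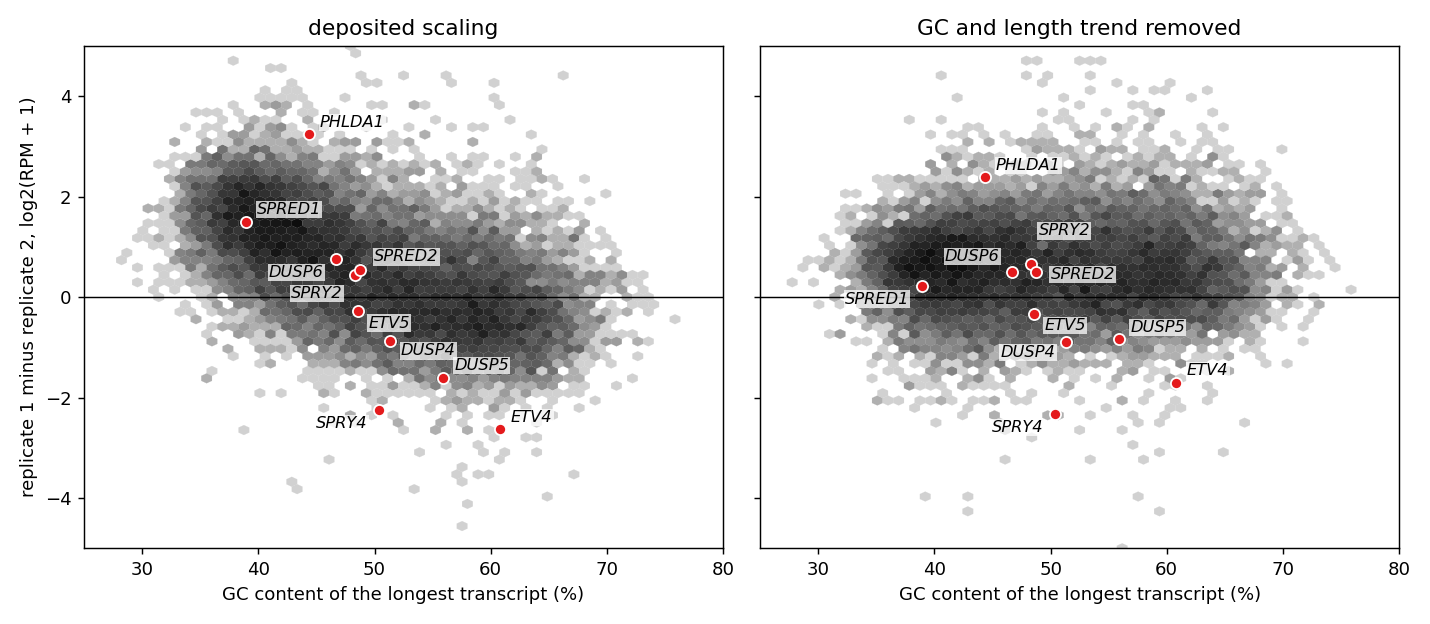
Difference of CLDN6 replicate 1 minus replicate 2, in log2(RPM + 1) units, against the GC content of the longest transcript (%), as deposited (left) and after removal of the GC and length trend (right), with the 10 genes in red and the other genes tested as grey hexagons, darker for more genes, without those beyond the axes. The cloud slopes down at left and much less at right, where SPRY4 (-2.33), ETV4 (-1.70) and PHLDA1 (2.39) lie farthest from 0 among the 10.

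The position of most genes relative to WT held across settings. Across the deposited scaling and 9 alternatives of scaling, filter and pseudocount, DUSP6 lay above WT by 0.75 to 1.11 in replicate 1 and by 0.33 to 0.82 in replicate 2. ETV5 lay between -1.27 and -0.96 in replicate 1 and between -0.70 and -0.19 in replicate 2. SPRY2 and SPRED2 were below WT in both libraries in each of these settings, with changes nearest to 0 of -0.11 and -0.20. SPRY4 and ETV4 were below WT in replicate 1 and above it in replicate 2 in each setting, from -1.52 to -1.18 and 1.07 to 1.56 for SPRY4 and from -1.27 to -0.47 and 1.24 to 2.18 for ETV4. DUSP4 and DUSP5 held that order as well. The exceptions were PHLDA1 in replicate 2, which ran from -0.58 to 0.48, and SPRED1, which ran from -0.06 to 0.69 in replicate 1 and from -0.88 to 0.26 in replicate 2. PHLDA1 was thereby a further member above WT in both CLDN6 libraries, giving 2 of 10, under quantile normalization (14.8% of all genes), with the GC and length trend removed (11.5%) and with medians aligned as well (17.4%), while the count stayed at 1 under the TMM-like (11%) and RLE (12.9%) scalings. Below WT in both, 3 of 10 were counted under each of these 5 scalings, beside 13.4%, 18%, 19.4%, 13.8% and 11.9% of all genes in the same order. The filters left the values of each gene kept as they were, and a pseudocount cannot change which library is higher. The filter and pseudocount settings therefore could not move a gene across WT. Limma-voom kept the deposited depth of each library as its scaling, so it too could hardly move these genes across WT.

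**Figure D4:**
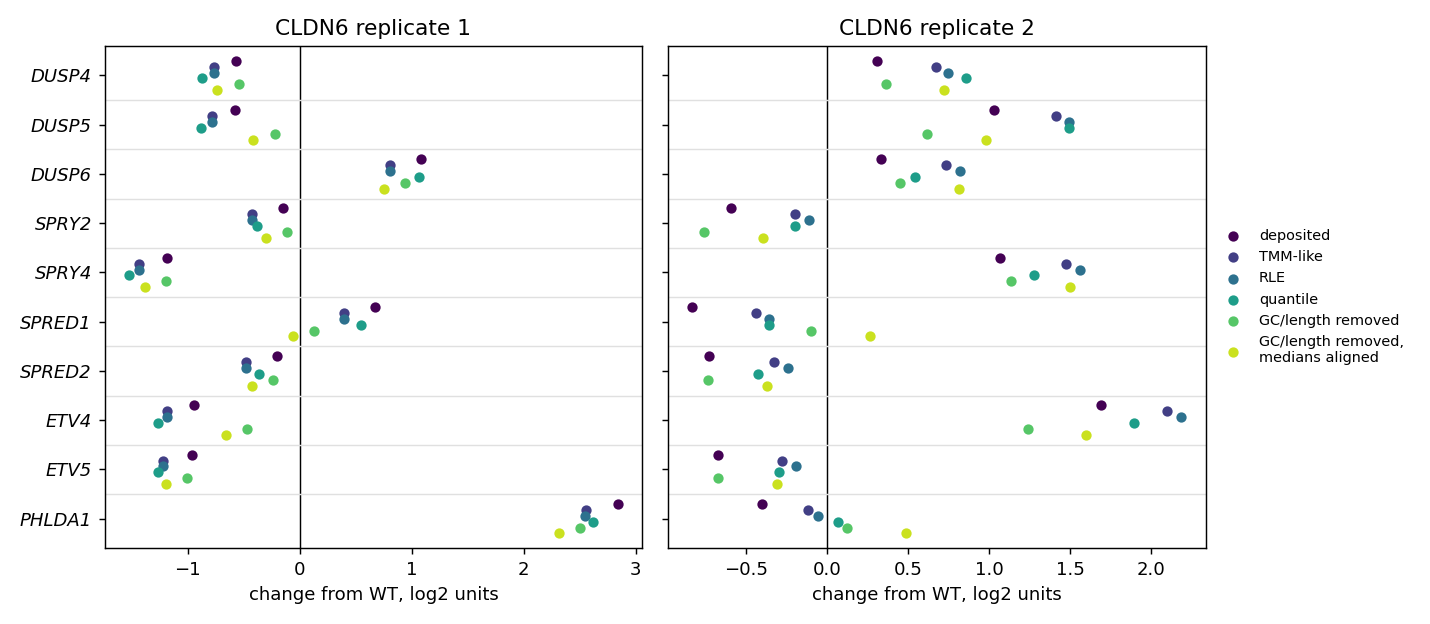
Change from WT (log2 units) of each gene in CLDN6 replicate 1 (left) and replicate 2 (right) under 6 scalings, 1 point per scaling. Points of DUSP6 lie right of 0 and those of ETV5, SPRY2 and SPRED2 left of 0 in both panels, SPRY4, ETV4, DUSP4 and DUSP5 change sides between the panels, and SPRED1 and, in replicate 2, PHLDA1 straddle 0.

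Levels were compared between genes only per length, as the mean RPM over the 3 libraries per kilobase of exon in GENCODE 29. DUSP6 led at 10.23, followed by SPRY2 at 7.52, ETV4 at 7.32, SPRED2 at 6.67, SPRY4 at 4.18, ETV5 at 3.61, SPRED1 at 2.86, DUSP5 at 2.73, PHLDA1 at 1.29 and DUSP4 at 0.629. The ranges over the libraries overlapped for each pair of neighbours in that order. In replicate 2, ETV4 was the first of the 10 at 15.2 and PHLDA1 the last at 0.236, while in replicate 1 DUSP6 was first at 15.0 and DUSP4 last at 0.395.

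Relatives of the 10 genes and other feedback regulators were read from a further list of 17, of which 15 could be tested and 0 passed. From the all-gene medians, 8 of the 15 lay below in replicate 1 and above in replicate 2, and 3 lay the other way, beside 37.1% of all genes in each direction. Measured from WT itself, these counts were 7 and 5, beside 22% and 53.8%. From the all-gene medians, the list's median was -0.33 in replicate 1 and 0.66 in replicate 2, where the 10 feedback genes had -0.58 and 0.30. DUSP3, a phosphatase of ERK and JNK, was read at 74.8, 87.8 and 57.6 RPM, above WT in both CLDN6 libraries. SPRY1, a further Sprouty gene, was at 18.3, 28.3 and 25.6 RPM, and PHLDA2, an imprinted relative of PHLDA1, at 10.0, 40.7 and 27.5 RPM, so that PHLDA2 was lowest in replicate 1, where PHLDA1 was highest. Picked once the levels were known, IL17RD, a membrane inhibitor of FGF signaling, was at 24.0, 5.31 and 12.3 RPM, and ETV1, the third gene of the ETV4 and ETV5 subfamily, at 2.05, 0.608 and 2.02 RPM.

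Of 22 other genes that ERK signaling is known to induce, 17 could be tested and 0 passed. From the all-gene medians, 11 lay below in replicate 1 and above in replicate 2, the order of SPRY4 and ETV4, and 1 lay the other way, beside 37.1% of all genes in each direction. Measured from WT itself the split was less one-sided, with 9 in that order and 4 in the other, beside 22% and 53.8% of all genes. Their median GC content was 56.9%, and it was 48.6% for the 10 feedback genes. With the GC and length trend removed, the difference of replicate 1 minus replicate 2 changed sign for some of the 11. Examples picked with the values known are MYC (-0.41 to 0.29) and IER3 (-1.01 to 0.07). For others it kept its sign, as for EMP1 (-0.90 to -1.76). The part of GC content in these counts was not tested. Named for their level, CCND1, the gene of cyclin D1, was at 647, 296 and 357 RPM, EMP1, a membrane protein, at 107, 200 and 131 RPM, and EPHA2, an ephrin receptor, at 75.03, 216 and 142 RPM. FOSL1, SPHK1 and LIF were picked once the levels were known: FOSL1, the AP-1 subunit FRA1, was at 0.0985, 6.98 and 0.649 RPM, SPHK1, which makes sphingosine phosphate, at 0.858, 8.18 and 1.43 RPM, and the cytokine gene LIF at 0.408, 4.59 and 1.33 RPM. All 3 were highest in replicate 2 and lowest in replicate 1, and their gaps were -1.80, -1.44 and -1.46 after removal of the GC and length trend. EGR1 and FOS, immediate early transcription factors also picked in this way, did not follow them: EGR1 was at 58.3, 7.92 and 57.1 RPM, and FOS was at 5.89, 2.92 and 5.26 RPM. After removal of the same trend, the gap was 3.35 for EGR1, 1.46 for FOS and 1.19 for CCND1, each higher in replicate 1. ERK-induced genes were thus not of a single order in replicate 2, where FOSL1 was the farthest above and EGR1 the farthest below WT among the 17. The rows of EPHA2, SPHK1, LIF, IER3 and CCND1 overlap other rows and are uncertain to that extent.

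The 30 genes of the RAS-ERK cascade itself were all tested and 0 passed. Relative to the all-gene medians, 13 lay above in replicate 1 and below in replicate 2, 11 the other way, 3 above in both and 3 below in both, beside 37.1%, 37.1%, 12.9% and 12.9% of all genes. From WT itself, these counts were 18, 7, 1 and 4, beside 53.8%, 22%, 9.06% and 15.1%. MAP2K2, which encodes MEK2, was at 81.8, 171.5 and 135 RPM, PTPN11, the phosphatase SHP2, at 181, 61.0 and 136 RPM, and the adaptor GRB2 at 109, 146 and 121 RPM, where the rows of PTPN11 and GRB2 overlap others. Also picked with the levels known, CIC, a repressor of ETV4 and ETV5 that ERK inactivates, was at 46.1, 40.6 and 64.9 RPM, below WT in both CLDN6 libraries as ETV5 was.

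**Figure D5:**
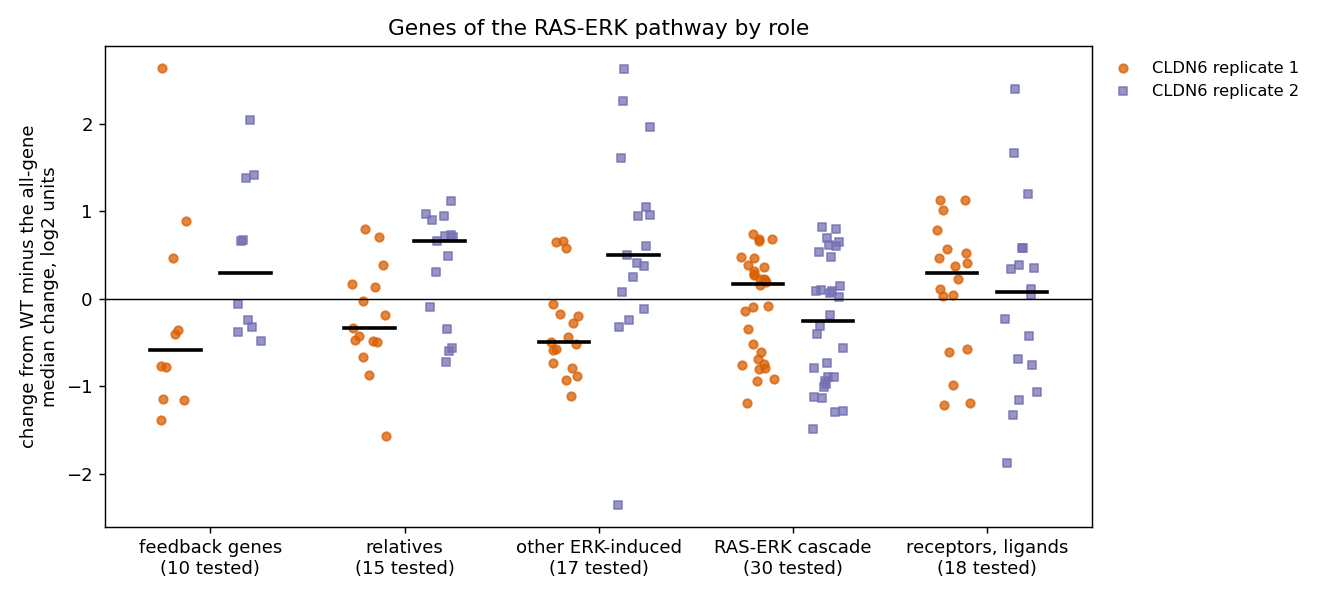
Change from WT minus the all-gene median change (log2 units) for the tested genes of each list in CLDN6 replicate 1 (circles) and replicate 2 (squares), with bars at the medians; each symbol is 1 gene. Medians of the feedback genes, their relatives and the other ERK-induced genes lie below 0 in replicate 1 (-0.58, -0.33 and -0.49) and above 0 in replicate 2 (0.30, 0.66 and 0.50). The RAS-ERK cascade lies the other way, at 0.17 in replicate 1 and -0.25 in replicate 2, and the receptors and ligands lie above 0 in both, at 0.30 and 0.08.

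DUSP6 was the gene used to look for like patterns, among protein-coding genes whose mean reached 5 RPM and whose row overlapped no other. By distance in the changes of both CLDN6 libraries, the nearest of 4379 genes were UBE2D1 at 12.5, 7.22 and 6.09 RPM (distance 0.19), TNC at 1174, 853 and 638 RPM (0.23) and PPP1R14C at 29.3, 20.8 and 15.7 RPM (0.23), and 4 genes lay within 0.25. This likeness rests on 3 libraries.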

How the data were processed

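RNA was sequenced from 3 libraries, 2 with CLDN6 and 1 WT, grouped by the labels. The authors deposited log2 values per gene, on the GRCh38 build per the submitters' processing notes; the aligner, the counter, the annotation and how strand was handled were each not given in the sources used here. Per the file headers the columns carry a cell name, ECC-1, that is in no label, and they were matched by the words CLDN6 1, CLDN6 2 and WT. On the linear scale 99.9782%, 99.9275% and 99.9687% of the values were whole multiples of the step that 1 read is worth (within 0.05 of a read), and they were taken as log2 RPM. Genes without reads, listed at 0.9 of a read, were set to 0. Of 35805 rows, 28 had names turned into dates, restored by gene ID, and 92 were left out, either for lack of an ID or as repeats of an ID that had 0 reads. The CLDN6 libraries differed by a mean chi-square of 498 per gene and were counted as separate.

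The 14509 genes whose mean reached 1 RPM were fitted as log2(RPM + 1) in limma 3.58.1 (R 4.3.3), its trend option on, two-sided, Benjamini-Hochberg over all genes, threshold 0.05. The fit assumes that WT varies as the CLDN6 libraries do, and the prior degrees of freedom came out infinite, so the spread is shared across genes. The code was tested on simulated data. The recovery it had to reach was set for a spread between libraries far below that of these data. GC content and lengths came from GENCODE 29 (34884 gene IDs found). Overlaps are between rows of the table. Count intervals are exact, at 95%; PCR copies are not independent molecules. The named genes were the 10 members, up to 3 genes of highest mean level from each of 4 context lists, and the 3 genes nearest to DUSP6; others are marked as picked once their values were known. The 10 members and the lists were chosen with earlier results of these data known. Alternatives were TMM-like and RLE factors computed from recovered reads, quantile normalization, a pseudocount of 0.1 RPM, no filter and a filter of 5 RPM, limma-voom, each CLDN6 library left out, and removal of a GC and length trend.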

Additional observations from a re-analysis of the deposited data

How the results depend on the processing

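Limits: 1 WT library, no empty-vector control, unknown strand setting and CLDN6 libraries that differ between themselves mean that a change from WT cannot be separated from variation between libraries. Depth was not the limit for these genes, with at least 125 reads each per library. No paired analysis was possible because WT has a single library whose number pairs it with nothing. Without a filter on low values, 0 genes passed limma in place of 1 (CLDN6), while 1303 had an unadjusted p under 0.05. By limma-voom, run on the recovered counts, 0 genes passed and 8 had such a p. The cause was not tested. Members above WT in both CLDN6 libraries numbered 2 in place of 1 with quantile normalization, with the GC and length trend removed and with that and medians aligned (2 each), PHLDA1 joining DUSP6; members below numbered 3 in each setting. The setting with medians aligned was chosen after seeing the data. The median log2 change over the members, -0.07, was -0.38 without CLDN6 replicate 2 and -0.0489 without replicate 1. Its sign turned under RLE scaling (0.0403), quantile normalization (0.0409) and with the trend removed and medians aligned (0.0775). The fitted change of SPRY4 was -0.06 and turned to 0.0196 under the TMM-like scaling, 0.0639 under the RLE scaling and 0.0555 with the trend removed and medians aligned. That of SPRED1 was -0.08 and turned to 0.0166 under RLE, 0.0919 under quantile normalization, 0.0129 with the trend removed and 0.10 with medians aligned as well. With either CLDN6 replicate left out, the changes ran from -0.57 to 0.31 for DUSP4, from -0.57 to 1.03 for DUSP5, from -1.18 to 1.07 for SPRY4, from -0.83 to 0.67 for SPRED1, from -0.94 to 1.69 for ETV4 and from -0.41 to 2.84 for PHLDA1, so that the direction of each rests on 1 library. DUSP6, SPRY2, SPRED2 and ETV5 kept their direction in each setting run. A mean of at least 5 RPM left out DUSP4. Counts of genes called and of members on a side of WT have no value with 1 CLDN6 library.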

Other observations

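Receptors and ligands upstream of the cascade were read from a list of 25 genes, of which 18 were tested and 0 passed (limma, Benjamini-Hochberg; 0 with an unadjusted p under 0.05). TGFA, a ligand of the EGF receptor, was at 169, 218 and 219 RPM in CLDN6 replicate 1, replicate 2 and WT, ERBB2 at 185, 127 and 156 RPM and ERBB3 at 105, 30.9 and 84.3 RPM, where all 3 rows overlap others. Picked once the levels were known, FGFR2, an FGF receptor, was at 77.3, 6.25 and 32.8 RPM, and FGFR4 at 8.67, 22.1 and 11.8 RPM, so that these receptors stood in opposite order over the 3 libraries. The gap of FGFR2 between the CLDN6 libraries was 3.43 log2 units as deposited and 3.37 after removal of the GC and length trend. Of the 18 genes, 5 lay above WT in both CLDN6 libraries (NRG1, AXL, MET, FGFR1 and FGF2), beside 9.06% of all genes, and 3 lay below WT in both (TGFA, FGFR3 and KIT), beside 15.1%. Some of these sides are near ties in replicate 2, as for TGFA. MET was there at 16.73 RPM beside 16.70 in WT, and FGFR1 at 34.5 beside 33.7. From the all-gene medians, 7 of the 18 lay above in both and 2 below in both, beside 12.9% of all genes each. Also picked with the levels known, NRG1, a ligand of ERBB3 and ERBB4, was at 5.70, 10.01 and 1.67 RPM and the receptor gene AXL at 7.55, 11.9 and 4.17 RPM, both on rows that overlap others. FGFR3 was at 5.15, 6.14 and 11.2 RPM and KIT at 3.49, 2.77 and 6.71 RPM. HGF, FGF20 and PDGFRB, named because they had 0 reads in each library, have a limit of 0.0422, 0.0456 and 0.0442 RPM in the same order of libraries.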
